A study of Mus musculus with 10 samples.

Results

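The genes described here are the 10 genes Cdh1, Cdh2, Epcam, Vim, Krt8, Krt18, Krt19, Snai1, Zeb1 and Fn1, which are commonly used to describe how epithelial or how mesenchymal a cell is. They were taken by symbol, with earlier results of these data known, and all 10 of them are listed among the 36066 genes of the expression table. RNA-seq was performed on 10 libraries of mouse cells, 2 in each of 5 groups, to compare embryonic stem cells made without a father with ordinary ones, and the germ cells induced from each with germ cells of the embryo. The labels give replicate numbers but do not say whether replicates are separate cultures or animals. The study describes its RNA-seq as 2 biological replicates, a term it uses for mice or for replicates of cell studies. The p-values measure the spread between these libraries, and how far replicates of cells were independent is not given.

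All 5 groups are labelled C57BL6. ESCs are a female line from fertilized embryos, and pESCs are a line from activated oocytes, so that their chromosomes are maternal alone. Per the study's methods the lines carried an Actin-GFP transgene, were grown on mouse embryonic fibroblast feeders in serum and LIF, and were passaged in medium with inhibitors before induction. ESC-PGCLCs and pESC-PGCLCs are primordial germ cell-like cells obtained by way of epiblast-like cells, which were plated on fibronectin, and then by 4 days in floating culture with 500 ng/mL BMP4, SCF, EGF and LIF. They were sorted for the surface antigens SSEA1 and CD61. PGCs are primordial germ cells taken from female embryos and sorted with antibodies to the same antigens or to SSEA1 alone. The labels give no embryonic day for the PGC libraries. All groups were compared as bulk populations, in which fewer cells of a type and less RNA per cell cannot be told apart.

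Epithelial cells are held to their neighbors by cell-surface adhesion molecules and braced by keratin filaments, while mesenchymal cells are loosely attached, carry vimentin filaments and sit in a matrix rich in fibronectin. Transcription factors of the Snail and Zeb families repress epithelial genes by binding E-boxes, and a cell may lie between both states. Germ cell formation touches this axis more than once, because primordial germ cells arise from the epiblast, an epithelium, then migrate as single cells and settle in the gonad, and E-cadherin and EpCAM are both known on their surface.

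The deposited values are TPM, a measure per transcript length that sums to 1000000 in each library, so that levels can be compared between genes. Reads recovered from the TPM numbered 6779848 to 18572926 per library, with ESC-PGCLCs shallowest, and for exons of 2434 nt in all, the median, 3 reads were worth 0.104 to 0.303 TPM. These floors cover counting error alone. Differences are given as log2 fold changes of TPM + 1 with their standard error (SE), which understate the change of genes of a few TPM. A gene was called, and is said to have risen or fallen, at an adjusted p under 0.05 with at least a 2-fold change in limma, with variances from all 10 libraries and 27259 genes tested. An exact two-sided permutation test of 2 libraries against 2 cannot go below p = 0.333, so the calls depend on how limma models the variance. Blood and gonadal somatic genes were higher in both kinds of PGCLC, which the study describes as cells of a 4-day culture, than in stem cells. Haemoglobin and other blood markers summed to 2870 to 3400 TPM in pESC-PGCLCs, to 487 to 556 TPM in ESC-PGCLCs and to 1960 to 2150 TPM in PGCs, against 4.01 TPM or less in stem cells. Gonadal somatic markers summed to 35.8 to 41.6 TPM in pESC-PGCLCs, 17.6 to 20.8 TPM in ESC-PGCLCs and 70.5 to 79.9 TPM in PGCs, against 4.85 TPM or less in stem cells. Every difference between the 2 kinds of PGCLC, or between PGCLCs or PGCs and stem cells, thus rests on libraries that hold RNA of such genes. The scaling of the libraries is uncertain. All genes had a median change of 0.28 on the log2 scale for PGCs against both stem cells. It was 0.02 with quantile normalization and 0.72 with voom, which works on counts, on recovered reads. It was -0.48 after each library was centred on the median of genes present everywhere. Centring shifted every gene of a library by the same amount, also genes near 0 TPM. Centred values of such genes, and medians of lists that hold many of them, thus carry this offset.

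No member was called by limma between pESCs and ESCs, with 3 at an unadjusted p under 0.05 (Epcam, Krt8 and Krt18) and 0 called by voom on recovered reads. There limma called 213 genes or 0.781% of those tested and the members' median log2 fold change was -0.27 beside -0.06 for all genes. In pESC-PGCLCs against ESC-PGCLCs 2 members were called, Krt8 and Krt18, both higher, with 13.4% of all genes called and medians of 0.25 for the members and 0.12 for all genes. In ESC-PGCLCs against ESCs 3 members were called, against a background of 29.8%, with Epcam and Zeb1 higher and Cdh1 lower. In pESC-PGCLCs against pESCs 5 were called, against a background of 27.6%, with Epcam, Krt8, Krt18 and Zeb1 higher and Cdh1 lower. PGCs differed from ESC-PGCLCs in 3 members, Vim, Krt8 and Krt18, all higher, with 13.8% of genes called. They differed from pESC-PGCLCs in 1 member, Cdh1, with 3.67% of genes called. Against both stem cells, PGCs had 6 members higher, Cdh2, Epcam, Vim, Krt8, Krt18 and Zeb1, and none lower, with 33.3% of genes called. With median centring Cdh2, Vim and Krt8 were not called and Cdh1 was called lower. The interaction term, which tests whether the change from stem cells to PGCLCs depended on the origin of the stem cells, called 3 members, Krt8, Krt18 and Vim, with 19.1% of genes called. These comparisons share libraries, so their lists are not independent of each other.

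**Figure D1:**
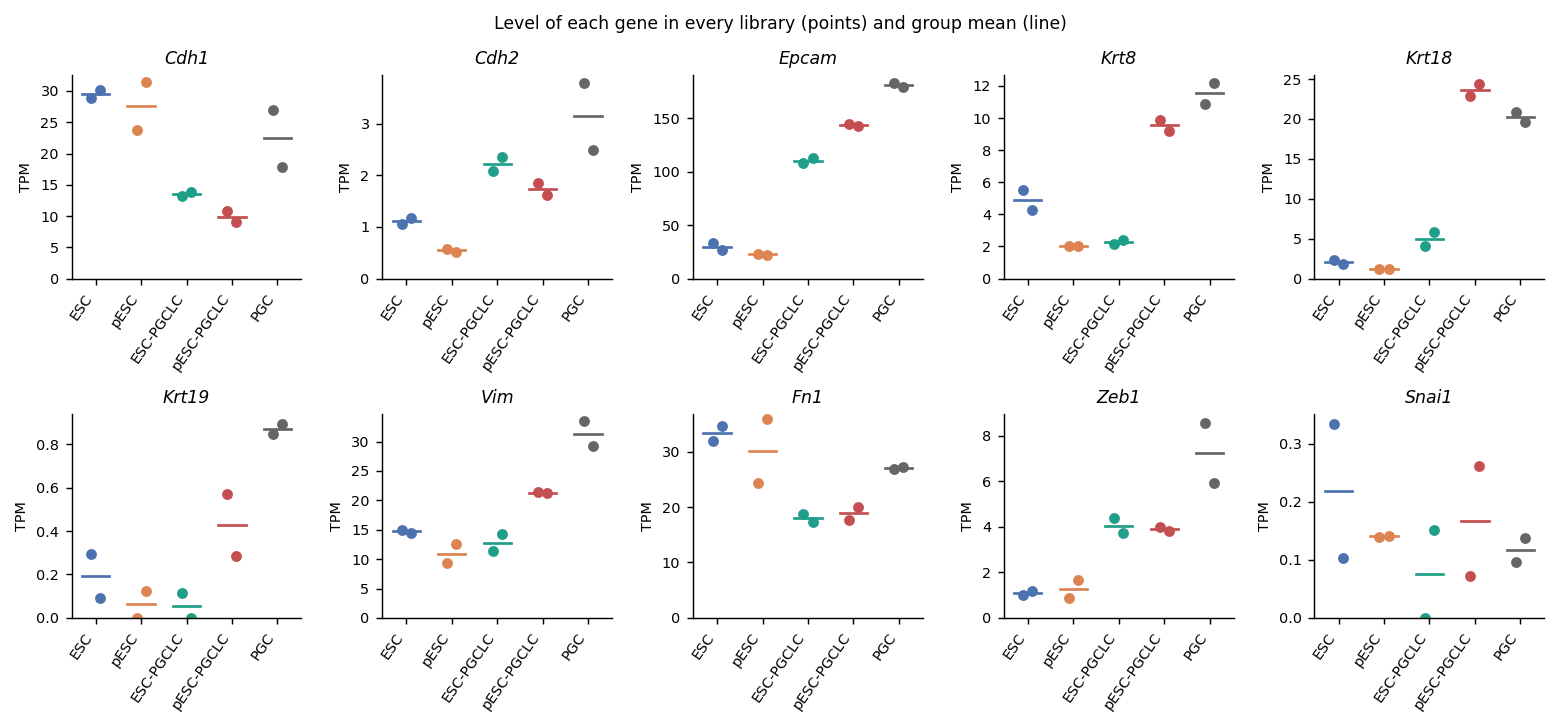
Level of the 10 genes in TPM on linear axes that start at 0, with 1 panel per gene, a point for each of the 2 libraries of a group and a line at the group mean. Epcam stands at 108 TPM or more in all 6 germ cell libraries and at 33.2 TPM or less in all 4 stem cell libraries, while Krt19 and Snai1 stay below 1 TPM everywhere.

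Epcam, a homophilic adhesion molecule of epithelia, was the most abundant member in all 6 germ cell libraries and rose in germ cells of every kind. It is encoded on the plus strand of chromosome 17, at 87635979 to 87651129 of GRCm38. Its level was 33.2 and 26.8 TPM in ESCs, 23.0 and 22.2 TPM in pESCs, 108 and 113 TPM in ESC-PGCLCs, 145 and 143 TPM in pESC-PGCLCs and 183 and 179 TPM in PGCs. The groups did not overlap, in the order PGCs, pESC-PGCLCs, ESC-PGCLCs, ESCs and pESCs. The log2 fold change was 1.85 (SE 0.13, adjusted p = 2.35e-05) in ESC-PGCLCs against ESCs and 2.62 (SE 0.13, adjusted p = 8.32e-06) in pESC-PGCLCs against pESCs. In PGCs it was 2.76 (SE 0.12, adjusted p = 1.64e-06) against both stem cells, a ratio of mean TPM of 6.88. The steps among germ cells were smaller. Epcam was 1.65 times higher in PGCs than in ESC-PGCLCs (log2 fold change 0.71, adjusted p = 0.00736), which is under 2-fold. Between pESC-PGCLCs and ESC-PGCLCs the log2 fold change was 0.38 (adjusted p = 0.0774), a difference that became -0.03 after median centring.

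Cdh1, which encodes E-cadherin, the adhesion molecule of epithelial adherens junctions, fell in PGCLCs while Epcam rose. The gene lies on chromosome 8, at 106603351 to 106670246. Its level was 28.9 and 30.1 TPM in ESCs and 23.7 and 31.5 TPM in pESCs, which overlapped. It was 13.2 and 13.8 TPM in ESC-PGCLCs, 10.8 and 8.97 TPM in pESC-PGCLCs, and 27.0 and 17.9 TPM in PGCs. Both kinds of PGCLC thus lay below all stem cells and below PGCs, and PGCs overlapped pESCs. Cdh1 fell by 1.07 on the log2 scale (SE 0.22, adjusted p = 0.0046) from ESCs to ESC-PGCLCs and by 1.38 (SE 0.22, adjusted p = 0.00139) from pESCs to pESC-PGCLCs, and the difference between these changes was not called (interaction -0.31, SE 0.31, adjusted p = 0.542), though with median centring the interaction was -1.05 and called (adjusted p = 0.0153). With quantile normalization the first of these was -0.89 and under 2-fold. Cdh1 was higher in PGCs than in pESC-PGCLCs (log2 fold change 1.08, SE 0.22, adjusted p = 0.0324). The call was lost when either ESC, either ESC-PGCLC or either pESC-PGCLC replicate or PGC replicate 1 was left out (adjusted p between 0.055 and 0.165, values between 0.80 and 1.21). Against ESC-PGCLCs the log2 fold change of PGCs was 0.67 (adjusted p = 0.0523), and against both stem cells -0.35 (adjusted p = 0.153). With median centring the latter was -1.11 (adjusted p = 0.000371), a called fall.

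As Epcam rose and Cdh1 fell, the ratio of their TPM within a library shifted. Epcam over Cdh1 lay between 0.705 and 1.15 in the 4 stem cell libraries, was 8.19 and 8.18 in ESC-PGCLCs, 13.4 and 16.0 in pESC-PGCLCs and 6.79 and 10 in PGCs. Such a ratio does not depend on the scaling of the libraries.

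Cdh2, which encodes N-cadherin, the cadherin that mesenchymal and neural cells carry, stayed low throughout. Its locus is on the minus strand of chromosome 18, at 16588877 to 16809246. Its level was 1.05 and 1.18 TPM in ESCs, 0.578 and 0.515 TPM in pESCs, 2.09 and 2.35 TPM in ESC-PGCLCs, 1.85 and 1.62 TPM in pESC-PGCLCs and 3.79 and 2.50 TPM in PGCs, with between 36 and 195 reads behind each value. The groups did not overlap. In PGCs against both stem cells the log2 fold change was 1.18 (SE 0.17, adjusted p = 0.000511). It fell under 2-fold without PGC replicate 1 (0.95), with quantile normalization (0.51) and with median centring (0.42). The log2 fold change was 0.60 (adjusted p = 0.0347) in ESC-PGCLCs and 0.82 (adjusted p = 0.00974) in pESC-PGCLCs against their stem cells, both under 2-fold on this scale although the ratios of mean TPM were 2.00 and 3.16. E-cadherin RNA exceeded N-cadherin RNA in every library, by 25.5 to 61.1 times in stem cells and by 5.53 to 7.17 times in germ cells.

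**Figure D2:**
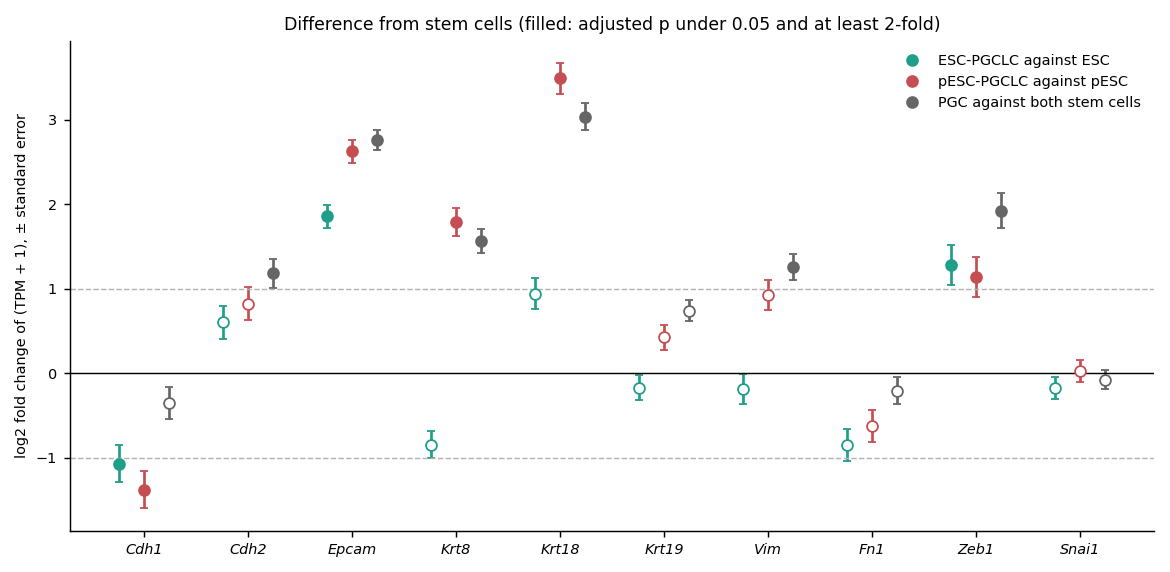
Log2 fold change of TPM + 1 for the 10 genes in ESC-PGCLCs against ESCs, pESC-PGCLCs against pESCs and PGCs against both stem cells, with bars of 1 SE and dashed lines at 2-fold. Filled points passed the test. Epcam and Zeb1 are filled above 0 in all 3 comparisons, Cdh1 is filled below 0 in both kinds of PGCLC, and Krt8 and Krt18 are filled in pESC-PGCLCs and PGCs but not in ESC-PGCLCs.

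Krt18 and Krt8, the acidic and basic keratins that pair to form the filaments of simple epithelia, separated pESC-PGCLCs and PGCs from ESC-PGCLCs. They lie next to each other on chromosome 15, Krt8 on the minus strand at 101996698 to 102004482 and Krt18 on the plus strand at 102028180 to 102032027, 23.7 kb apart with no other gene of the table between them. Krt18 was at 2.34 and 1.81 TPM in ESCs, 1.19 and 1.20 TPM in pESCs, 4.10 and 5.81 TPM in ESC-PGCLCs, 22.9 and 24.4 TPM in pESC-PGCLCs and 20.9 and 19.6 TPM in PGCs. Krt8 was at 5.49 and 4.30 TPM in ESCs, 2.03 and 2.06 TPM in pESCs, 2.15 and 2.38 TPM in ESC-PGCLCs, 9.90 and 9.17 TPM in pESC-PGCLCs and 10.9 and 12.2 TPM in PGCs. For both genes, pESC-PGCLCs and PGCs lay above all other libraries. The Krt8 values of ESC-PGCLCs rest on 20 and 19 reads and those of Krt18 on 28 and 34 reads, while pESC-PGCLCs had 165 and 169 reads of Krt8 and 280 and 330 reads of Krt18.

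From pESCs to pESC-PGCLCs, Krt18 rose by 3.49 on the log2 scale (SE 0.18, adjusted p = 8.8e-06), a ratio of mean TPM of 19.7, and Krt8 rose by 1.79 (SE 0.16, adjusted p = 9.13e-05), a ratio of 4.65. From ESCs to ESC-PGCLCs, Krt18 was higher by 0.94 (adjusted p = 0.00341) and Krt8 lower by 0.84 (log2 fold change -0.84, adjusted p = 0.00327), both under 2-fold on this scale. Without ESC replicate 1 or without ESC-PGCLC replicate 1 the Krt18 value passed 2-fold (1.07 and 1.15), and Krt8 passed it with a pseudocount of 0.1 (-1.07) and with voom on recovered reads (-1.13). The difference between the origins was itself tested. The interaction was 2.63 for Krt8 (SE 0.23, adjusted p = 0.000432) and 2.55 for Krt18 (SE 0.26, adjusted p = 0.000672).

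Compared directly, pESC-PGCLCs exceeded ESC-PGCLCs by 1.69 on the log2 scale for Krt8 (SE 0.16, adjusted p = 0.000407) and by 2.06 for Krt18 (SE 0.18, adjusted p = 0.000293), ratios of mean TPM of 4.20 and 4.77. PGCs exceeded ESC-PGCLCs by 1.94 for Krt8 (SE 0.16, adjusted p = 0.000804) and by 1.85 for Krt18 (SE 0.18, adjusted p = 0.00114). With the compared groups alone, neither passed (adjusted p = 0.0595 for both). Between PGCs and pESC-PGCLCs the log2 fold change was 0.25 for Krt8 (SE 0.16, adjusted p = 0.353) and -0.21 for Krt18 (SE 0.18, adjusted p = 0.485), and neither was called. The rise from both stem cells to PGCs was 3.03 for Krt18 (adjusted p = 3.68e-06) and 1.56 for Krt8 (adjusted p = 4.13e-05), the latter being under 2-fold with quantile normalization (0.76) and median centring (0.805). The stem cells differed less. Krt8 was 0.419 times as high in pESCs as in ESCs (log2 fold change -0.94, adjusted p = 0.0452), just under 2-fold on the log2 scale, and for Krt18 the log2 fold change was -0.48 (adjusted p = 0.212).

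**Figure D3:**
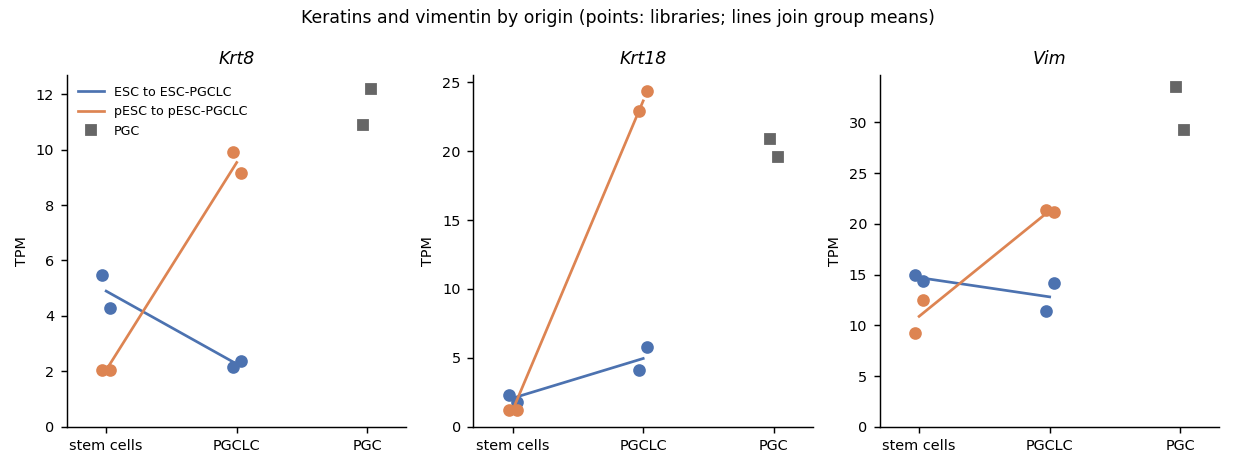
Krt8, Krt18 and Vim in TPM on linear axes from 0, with points for libraries and lines joining the group means of each origin, ESC to ESC-PGCLC and pESC to pESC-PGCLC, and squares for PGCs. Lines for Krt8 cross, with pESCs at 2.03 and 2.06 TPM ending at 9.90 and 9.17 TPM and ESCs at 5.49 and 4.30 TPM ending at 2.15 and 2.38 TPM.

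The balance of the pair also differed between stem cells and germ cells. Krt18 over Krt8 in TPM was 0.427 and 0.422 in ESCs and 0.584 in both pESC libraries, and it was 1.91 and 2.44 in ESC-PGCLCs, 2.31 and 2.66 in pESC-PGCLCs and 1.92 and 1.61 in PGCs. All 6 germ cell libraries were above 1 and all 4 stem cell libraries below it, so that ESC-PGCLCs had the keratin ratio of the other germ cells at a lower level of both genes. Of the 100-base stretches of Krt8 transcripts, 17.05% also occur in another gene, either the pseudogene Krt8-ps or the antisense gene Gm36026, which reached at most 0.234 and 0.510 TPM, while none of those of Krt18 do.

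Krt19, another keratin of simple epithelia, was close to the limit of detection. The gene lies on chromosome 11, at 100140810 to 100148665. Its level was 0.293 and 0.0907 TPM in ESCs, 0 and 0.124 TPM in pESCs, 0.113 and 0 TPM in ESC-PGCLCs, 0.570 and 0.286 TPM in pESC-PGCLCs and 0.845 and 0.895 TPM in PGCs. These values correspond to 5 reads or fewer in each stem cell and ESC-PGCLC library, to 9 and 5 reads in pESC-PGCLCs and to 10 and 15 reads in PGCs. PGCs lay above all other libraries, with a log2 fold change of 0.74 (adjusted p = 0.0013) against both stem cells and 0.83 (adjusted p = 0.00551) against ESC-PGCLCs, neither of them called. With a pseudocount of 0.1 both passed 2-fold (2.26 and 2.73), as they did with voom on recovered reads (2.75 and 2.97). With median centring, which shifts genes near 0 TPM as much as others, the former was -0.02.

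The E-box CACCTG, read on either strand (CAGGTG on the other), is the site that Snai1 and Zeb1 are known to bind. It was searched in the 250 bases before the RefSeq start site (GRCm38.p6) of 4 members, Epcam, Krt18, Snai1 and Vim. It occurred in 3 of these, all but Vim, where 17.2% of the 32851 promoters of the table held it. Epcam held 2, as did 2.06% of all promoters with 2 or more. The sequences of Epcam and Krt18, epithelial genes that rose, are shown for this reason, 5′ to 3′ along the gene and with the E-box in capitals. Epcam is shown in full at chr17:87635729-87635978 (plus strand) and Krt18 at chr15:102027966-102028179 (plus strand), up to the bases that GENCODE annotates as exon. These letters are a description of the promoters, and binding was not measured.
Epcam: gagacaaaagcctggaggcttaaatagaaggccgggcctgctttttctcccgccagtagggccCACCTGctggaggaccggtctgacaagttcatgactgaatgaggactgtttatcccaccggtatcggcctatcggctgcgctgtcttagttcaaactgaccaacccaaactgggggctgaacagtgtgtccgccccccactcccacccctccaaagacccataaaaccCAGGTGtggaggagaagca
Krt18: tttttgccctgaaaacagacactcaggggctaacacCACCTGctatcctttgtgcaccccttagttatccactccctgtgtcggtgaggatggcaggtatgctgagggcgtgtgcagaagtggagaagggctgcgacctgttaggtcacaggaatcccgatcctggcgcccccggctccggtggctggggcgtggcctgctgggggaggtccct

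In Epcam the E-boxes start 187 and 19 bases before the start site, and in Krt18 the single one starts 214 bases before it. In Snai1 it starts 126 bases before the start. Whether Zeb1 or Snai1 acts at these sites was not tested. The promoters of Cdh1 and of Krt8, the partner of Krt18, were not among those searched.

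Vim, which encodes the intermediate filament protein of mesenchymal cells, was expressed in every group and was highest in PGCs. It is encoded on chromosome 2, at 13573927 to 13582826. Its level was 15 and 14.4 TPM in ESCs, 9.26 and 12.5 TPM in pESCs, 11.4 and 14.2 TPM in ESC-PGCLCs, 21.4 and 21.2 TPM in pESC-PGCLCs and 33.5 and 29.2 TPM in PGCs. ESC-PGCLCs overlapped pESCs and lay below ESCs, and pESC-PGCLCs lay between the other cultured cells and PGCs. Vim was higher in PGCs than in ESC-PGCLCs (log2 fold change 1.23, SE 0.18, adjusted p = 0.00308) and than in both stem cells (1.25, SE 0.15, adjusted p = 0.00023). With the compared groups alone the former was not called (adjusted p = 0.0627). After quantile normalization and median centring these values were 0.78 and 0.63 in the former and 0.70 and 0.49 in the latter, all under 2-fold. From pESCs to pESC-PGCLCs the log2 fold change was 0.92 (adjusted p = 0.00372) and without pESC replicate 2 it was 1.12, past 2-fold. From ESCs to ESC-PGCLCs it was -0.19 (adjusted p = 0.433). The interaction was 1.11 (SE 0.25, adjusted p = 0.0168), and it was not called after quantile normalization (0.38), after median centring (0.37), with voom on recovered reads (0.96), or without any 1 of 6 libraries, both ESC replicates, both pESC-PGCLC replicates, pESC replicate 1 and ESC-PGCLC replicate 1 (0.91 to 1.14).

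Fn1, which encodes fibronectin, the matrix protein that cells bind through integrins and on which the epiblast-like cells had been plated as human protein, was as abundant as Cdh1 in stem cells. Its locus is on chromosome 1, at 71585520 to 71653200, where it shares 1.20% of its 100-base stretches with the antisense gene Apol7d, at 1.20 to 7.40 TPM. The strand setting of the counting is not given in the sources used here, so reads of the pair cannot be told apart. Its level was 32.0 and 34.6 TPM in ESCs, 24.4 and 35.9 TPM in pESCs, 18.7 and 17.3 TPM in ESC-PGCLCs, 17.6 and 20.1 TPM in pESC-PGCLCs and 26.8 and 27.2 TPM in PGCs. All 4 PGCLC libraries lay below all stem cell and PGC libraries, and PGCs lay within the range of pESCs. The log2 fold change was -0.85 (SE 0.19, adjusted p = 0.00644) in ESC-PGCLCs against ESCs and -0.63 (SE 0.19, adjusted p = 0.0265) in pESC-PGCLCs against pESCs, neither reaching 2-fold. After quantile normalization (-1.10) and after median centring (-1.36) the latter was called. In their order of groups Fn1 and Cdh1 were alike, with a Pearson r of 0.89 between them over the 10 libraries, the highest that Cdh1 had with another member. This r is a description over 5 groups.

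Zeb1, a zinc finger repressor of epithelial genes, rose with Epcam. It is encoded on the plus strand of chromosome 18, at 5591860 to 5775467. Its level was 0.983 and 1.16 TPM in ESCs, 0.853 and 1.66 TPM in pESCs, 4.38 and 3.71 TPM in ESC-PGCLCs, 3.99 and 3.82 TPM in pESC-PGCLCs and 8.57 and 5.90 TPM in PGCs, with 77 to 561 reads behind each value. The antisense gene Gm10125, which shares 0.92% of its 100-base stretches, was at 0.399 TPM or less. The 2 kinds of stem cell overlapped, as did the 2 kinds of PGCLC, and PGCs lay above both. Zeb1 rose by 1.28 on the log2 scale (SE 0.24, adjusted p = 0.00276) in ESC-PGCLCs against ESCs, a ratio of mean TPM of 3.79. It rose by 1.14 (SE 0.24, adjusted p = 0.00521) in pESC-PGCLCs against pESCs, where the call was lost without pESC replicate 1 (0.88), with quantile normalization (0.62) and with median centring (0.41). In PGCs it was 1.92 higher than in both stem cells (SE 0.21, adjusted p = 0.000105), a ratio of 6.18. The steps from PGCLCs to PGCs were not called, at 0.69 (adjusted p = 0.0601) from ESC-PGCLCs and 0.73 (adjusted p = 0.0906) from pESC-PGCLCs. Zeb1 was not called between the origins, with a log2 fold change of -0.04 (SE 0.24, adjusted p = 0.971) between the PGCLCs. Among the members Zeb1 was most like Epcam, with a Pearson r of 0.94 over the 10 libraries.

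Snai1, the Snail factor that represses Cdh1 at gastrulation, was at the limit of detection in every group. It is encoded on chromosome 2, at 167538195 to 167542814. Its level was 0.335 and 0.104 TPM in ESCs, 0.140 and 0.142 TPM in pESCs, 0 and 0.152 TPM in ESC-PGCLCs, 0.0724 and 0.262 TPM in pESC-PGCLCs and 0.0967 and 0.137 TPM in PGCs. No library had more than 5 reads, and 3 reads stood for 0.156 to 0.455 TPM, a floor passed in 1 ESC library (5 reads) and 1 pESC-PGCLC library (4 reads). No fold change is given, since these depths cannot show a difference at this level.

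Among 12 other transcription factors of the mesenchymal transition, 3 rose in ESC-PGCLCs against ESCs, 2 in pESC-PGCLCs against pESCs and 3 in PGCs against both stem cells, and none fell. With quantile normalization 1 of the 12 fell in the first of these comparisons, and with median centring 1 fell in each of the other 2. On the deposited scaling 15.3%, 20.8% and 25.3% of all genes were higher in the 3 comparisons. The list's medians were 0.24, 0.26 and 0.43, beside 0.05, 0.22 and 0.28 for all genes. With median centring, which shifts genes near 0 TPM as much as others, the last 2 were -0.47 and -0.33. There the medians of all genes were -0.51 and -0.48. Voom on recovered reads, which works on counts instead of TPM + 1, called 8, 8 and 9 factors higher and 1, 1 and 0 lower. Its medians for the list in the last 2 comparisons were 2.45 and 2.96, beside 0.47 and 0.72 for all genes. Tcf3, which encodes the E-box binding factors E12 and E47, rose by 2.24 on the log2 scale (SE 0.23, adjusted p = 0.000134) from ESCs at 3.09 and 3.50 TPM to ESC-PGCLCs at 16.7 and 22.2 TPM. Snai2, the Snail relative also called Slug, rose by 2.74 (SE 0.25, adjusted p = 9.04e-05) from 0.0563 and 0.685 TPM in pESCs to 7.20 and 8.68 TPM in pESC-PGCLCs, and stood at 9.23 and 8.98 TPM in PGCs. Snai2 thus stood well above Snai1, and above Snai3 at 0 to 0.793 TPM, in all 6 germ cell libraries. Tcf3 was the 1 factor that also separated PGCs from pESC-PGCLCs (log2 fold change 1.20, adjusted p = 0.0301), where 2.07% of all genes were higher. In the interaction 1 factor was called, Snai3 (1.14, adjusted p = 0.0226), at no more than 0.867 TPM in any library. Of all genes 15.5% were higher in the interaction.

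Genes of the epithelial state outside the 10 went both ways in ESC-PGCLCs, as did all genes. Of 35 wider epithelial genes, 8 rose and 11 fell in ESC-PGCLCs against ESCs, with a median of -0.27. Of all genes 15.3% were higher and 14.5% lower in that comparison. The largest rise was that of Tjp1, the tight junction scaffold ZO-1, from 2.99 and 2.58 TPM to 32.3 and 35.0 TPM (log2 fold change 3.20, SE 0.23, adjusted p = 2.25e-05). The largest fall was that of Elf3, an epithelial transcription factor, from 34.5 and 29.5 TPM to 0.190 and 0.111 TPM (-4.84, SE 0.22, adjusted p = 3.7e-06).

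In pESC-PGCLCs against pESCs 10 rose and 3 fell, with a median of 0.17, where 20.8% of all genes were higher and 6.8% lower. With median centring 5 rose and 9 fell, with quantile normalization 6 and 4, and with voom on recovered reads 13 and 5. The balance of the list thus depended on the processing. Esrp1, which encodes an epithelial splicing regulator, rose most there, from 0.0541 and 0.146 TPM to 12.6 and 13.7 TPM (3.68, SE 0.16, adjusted p = 5.43e-06), and was also the largest rise in PGCs against both stem cells, at 18.2 and 21.6 TPM. Elf3 was the largest fall in both (-3.36 and -3.58). In PGCs against both stem cells 9 rose and 5 fell. The counts were 7 and 9 with median centring, 7 and 8 with quantile normalization and 14 and 8 with voom. On the deposited scaling 25.3% of all genes were higher and 8.06% lower there.

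Between pESC-PGCLCs and ESC-PGCLCs 5 of the 35 epithelial genes rose and none fell, where 10.3% of all genes were higher, so the count is near the background. In the interaction 12 rose and none fell, where 15.5% of all genes were higher. With median centring these counts were 3 higher and 1 lower, and 4 higher and 3 lower. Spint2, an inhibitor of serine proteases of epithelial surfaces, led both. It was at 9.04 and 8.36 TPM in ESC-PGCLCs and 28.7 and 26.9 TPM in pESC-PGCLCs (log2 fold change 1.57, SE 0.16, adjusted p = 0.000493), with an interaction of 2.19 (adjusted p = 0.00068), and it was called under both scalings. In PGCs against ESC-PGCLCs 9 rose and none fell, led by the claudin gene Cldn6 (1.61, adjusted p = 0.00562). Of all genes 13.8% were called in that comparison, and 1.88% were lower. Of the called genes 86.4% were higher. None of the 35 was called with quantile normalization, and with median centring 1 was higher and 2 were lower. In PGCs against pESC-PGCLCs none of the 35 was called by limma, where 3.67% of all genes were called. Of the 35 genes, 19 had an unadjusted p under 0.05 there and voom on recovered reads called 1. Between the stem cells, where 0.616% of all genes were lower, 3 were lower in pESCs, led by Cldn4 (log2 fold change -1.36, adjusted p = 0.0401). None was called with median centring.

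**Figure D4:**
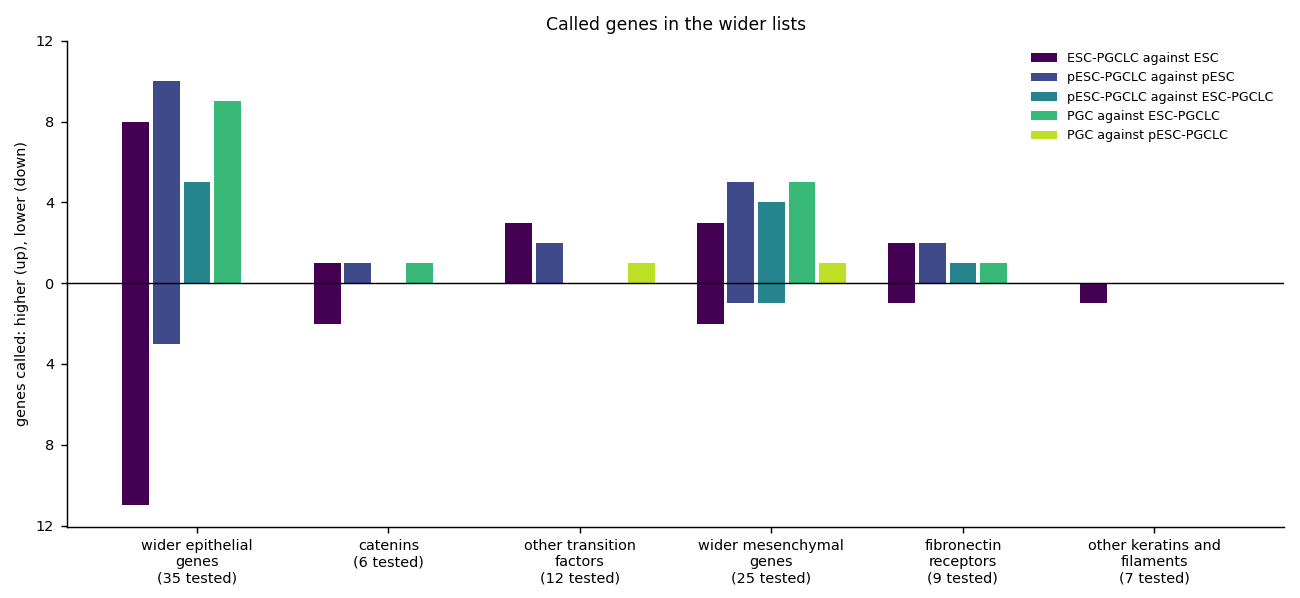
Number of genes called higher (upward bars) and lower (downward bars) in 6 lists of related genes, for 5 comparisons given by color, with the number of tested genes of each list under the axis. In the wider epithelial list 8 genes rose and 11 fell in ESC-PGCLCs against ESCs, while 5 rose and none fell in pESC-PGCLCs against ESC-PGCLCs. Of all genes 15.3% were higher and 14.5% lower in the former, and 10.3% higher in the latter. Bars show the scaling as deposited.

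Of the 6 catenins and related partners that link cadherins to actin and filaments, Ctnnb1, which encodes beta-catenin, rose while Cdh1 fell. It was at 47.2 and 46.5 TPM in ESCs, 25.6 and 40.0 TPM in pESCs, 141 and 143 TPM in ESC-PGCLCs, 160 and 182 TPM in pESC-PGCLCs and 251 and 269 TPM in PGCs. Its log2 fold change was 1.58 (adjusted p = 0.000368) in ESC-PGCLCs against ESCs and 2.38 (adjusted p = 6.6e-05) in pESC-PGCLCs against pESCs, and it was 2.71 (adjusted p = 8.35e-06) in PGCs against both stem cells. Jup, which encodes the related plakoglobin, fell by 1.36 (adjusted p = 0.000216) in ESC-PGCLCs, from 2.36 and 1.97 TPM to 0.229 TPM in both libraries. Ctnnd1, which encodes p120-catenin, was higher in PGCs than in ESC-PGCLCs (1.68, adjusted p = 0.00388) and was called in the interaction (1.35, adjusted p = 0.0369), though not after quantile normalization (0.84) or median centring (0.60).

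Of 9 integrin genes for fibronectin receptors, 2 rose in both kinds of PGCLC against their stem cells and in PGCs against both stem cells, Itgb3 and Itgb1. Of all genes 15.3% were higher in ESC-PGCLCs, 20.8% in pESC-PGCLCs and 25.3% in PGCs. Itgb3 encodes CD61, the antigen by which these cells were sorted, so its rise is not independent of the sort. Itgb1 was at 9.06 to 12.6 TPM in stem cells, 28.8 to 40.7 TPM in PGCLCs and 63.9 and 52.4 TPM in PGCs, while the level of its ligand Fn1 was lowest in PGCLCs. Itgb5 fell by 1.18 (adjusted p = 0.0109) in ESC-PGCLCs and was 1.61 higher (adjusted p = 0.00583) in pESC-PGCLCs than in ESC-PGCLCs, at 6.08 and 8.03 TPM against 1.63 and 1.61 TPM, with an interaction of 1.80 (adjusted p = 0.0166).

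Of 25 tested genes of the wider mesenchymal list, 3 rose and 2 fell in ESC-PGCLCs against ESCs, 5 rose and 1 fell in pESC-PGCLCs against pESCs, and 8 rose and 1 fell in PGCs against both stem cells. With median centring the last 2 counts were 2 and 4 and 3 and 2, while voom on recovered reads called 12 higher and 3 lower, 12 and 4, and 16 and 3. On the deposited scaling 15.3%, 20.8% and 25.3% of all genes were higher in these 3 comparisons, and 14.5%, 6.8% and 8.06% lower. Sparc, a secreted matrix protein, was the most marked fall in each, from 165 to 171 TPM in ESCs and 106 to 113 TPM in pESCs to 17.4 and 17.1 TPM in ESC-PGCLCs, 25.3 and 24.9 TPM in pESC-PGCLCs and 44.1 and 34.5 TPM in PGCs. Axl, a receptor tyrosine kinase, had the largest rise in PGCs against both stem cells (3.06, SE 0.19, adjusted p = 7.99e-06). Between pESC-PGCLCs and ESC-PGCLCs 4 rose and 1 fell, where 10.3% of all genes were higher and 3.08% lower. After median centring 0 rose and 2 fell. The matrix gene Tgfbi was 1.35 higher (adjusted p = 0.00177, and 0.94 with median centring), and Loxl2, which encodes a lysyl oxidase that crosslinks collagen, was lower (log2 fold change -2.47, SE 0.22, adjusted p = 0.0003). Loxl2 was at 12.1 and 17.9 TPM in ESC-PGCLCs, 2.04 and 1.65 TPM in pESC-PGCLCs and 8.35 and 6.29 TPM in PGCs, so that PGCs lay between the 2 kinds of PGCLC (log2 fold change -0.93 against ESC-PGCLCs, adjusted p = 0.0166, under 2-fold, and 1.54 against pESC-PGCLCs, adjusted p = 0.0156).

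Of 7 tested genes for other simple keratins and intermediate filaments, 1 was called in ESC-PGCLCs, the lamin gene Lmnb1 (log2 fold change -1.83, adjusted p = 0.000414), and 1 in PGCs against both stem cells, Nes (1.20, adjusted p = 9.7e-05, and under 2-fold with quantile normalization and median centring). Of all genes 14.5% were lower in the former comparison and 25.3% higher in the latter. None was called by limma in the comparison of pESC-PGCLCs with ESC-PGCLCs or in the interaction, where 2 of the 7 had an unadjusted p under 0.05 in each and voom on recovered reads called 1 and 0.

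Summed markers of gonadal somatic cells and of blood were higher in every germ cell library than in stem cells. The summed level of 8 markers of gonadal somatic cells was 3.93 to 4.85 TPM in stem cells, 17.6 to 20.8 TPM in ESC-PGCLCs, 35.8 to 41.6 TPM in pESC-PGCLCs and 70.5 to 79.9 TPM in PGCs. Of these, 3 were called higher in pESC-PGCLCs than in ESC-PGCLCs, Amhr2, Gata4 and Nr5a1, and Nr5a1, at 1.55 and 1.83 TPM in pESC-PGCLCs, was listed at 0 in all stem cell libraries. The 7 blood markers, chiefly haemoglobin genes, summed to 4.01 TPM or less in stem cells, 487 to 556 TPM in ESC-PGCLCs, 2870 to 3400 TPM in pESC-PGCLCs and 1960 to 2150 TPM in PGCs, and 6 of the 7 were called higher in pESC-PGCLCs than in ESC-PGCLCs. Of all genes 10.3% were higher in pESC-PGCLCs than in ESC-PGCLCs. The leukocyte gene Ptprc was at 0.103 TPM or less in every library. The part of these markers' cells in the differences of Krt8, Krt18 and Vim was not tested.

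**Figure D5:**
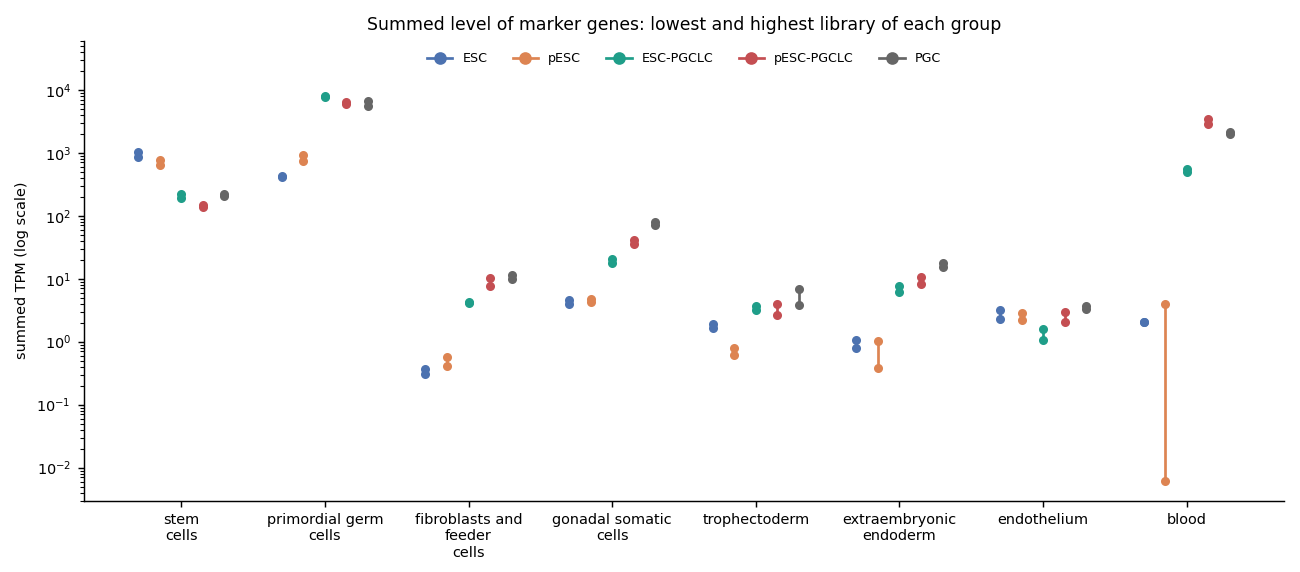
Summed TPM, on a log axis, of 8 lists of cell type markers, with the lowest and the highest library of each group joined by a line. Gonadal somatic and blood markers are higher in pESC-PGCLCs and PGCs than in ESC-PGCLCs, and fibroblast markers are at 11.3 TPM or less in every library.

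Markers of fibroblasts and feeder cells also differed between groups. Their 9 genes summed to 0.305 to 0.574 TPM in stem cells, 4.08 and 4.30 TPM in ESC-PGCLCs, 7.79 to 10.1 TPM in pESC-PGCLCs and 10 to 11.3 TPM in PGCs, with Thy1 listed at 0 in both ESC-PGCLC and both PGC libraries. Of the 8 tested, 3 rose in pESC-PGCLCs against pESCs (Col3a1, Dcn and Lum) and 2 in PGCs against both stem cells (Col3a1 and Dcn). Of all genes 20.8% and 25.3% were higher in these comparisons. Trophectoderm markers summed to 0.605 to 1.91 TPM in stem cells, 2.69 to 3.96 TPM in both kinds of PGCLC and 3.81 to 6.98 TPM in PGCs. Of the 4 tested, 1 was called in the interaction (Eomes, 1.31, adjusted p = 0.0148) and 2 were higher in PGCs than in both stem cells. There 15.5% and 25.3% of all genes were higher. The part of these markers in the members' differences was not tested. Endothelial markers reached at most 3.74 TPM, and markers of extraembryonic endoderm 15.1 to 17.7 TPM in PGCs and 10.5 TPM or less elsewhere. The germ cell markers Dazl and Ddx4 stood at 1080 to 2100 and 186 to 303 TPM in the 6 germ cell libraries and at most 18.7 and 3.35 TPM in stem cells. In these libraries neither was called between PGCs and either kind of PGCLC. Dazl was 0.88 higher on the log2 scale in PGCs than in pESC-PGCLCs (adjusted p = 0.036), which is under 2-fold. Of 7 stem cell markers, 6 fell and 1 rose in ESC-PGCLCs against ESCs, where 14.5% of all genes were lower and 15.3% higher. In pESC-PGCLCs against pESCs, and in PGCs against both stem cells, 5 fell and none rose. Of all genes 6.8% and 8.06% were lower in these 2 comparisons. Pou5f1 stood at 0 to 3.14 TPM in the 6 germ cell libraries and at 7.49 to 23.5 TPM in stem cells, while primordial germ cells are known to express it. Sox2 was at 32.7 to 62.4 TPM in stem cells, 97.3 and 110 TPM in ESC-PGCLCs, 23.9 and 29.7 TPM in pESC-PGCLCs and 83.4 and 75.1 TPM in PGCs.

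The genes whose log2 levels were most like those of each member over the 10 libraries, among 14839 genes of at least 1 TPM on average, give the shape of each pattern as a description over 5 groups. Epcam was most like the imprinted gene Ndn (Pearson r 0.999), Krt18 most like Myl9 (0.995), which encodes a myosin light chain, and Anxa2 (0.994), which encodes a membrane-binding annexin, and Krt8 most like Cnot10 (0.991). Zeb1 was most like Phf12 (0.995) and Vim most like Apeh (0.990). Cdh2 was most like the polarity gene Scrib (0.982), Cdh1 most like Bex4 (0.968), Krt19 most like Adgre5 (0.972) and Fn1 most like Mfsd1 (0.970), while the pattern of Snai1, at the floor, was matched less closely (Tmem238, 0.824). Among pairs of members, Krt8 and Vim had a Pearson r of 0.93 and Krt18 and Epcam also 0.93. Cdh1 and Epcam had -0.68. All of these correlations share the same 5 groups and libraries.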

How the data were processed

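RNA-seq of 10 libraries, 2 in each of 5 groups, was analysed. Per the study's methods the authors mapped reads to mm10 with Hisat2 and assigned them to genes by Feature-counts, and the submitters' processing notes also name Bowtie2, RSEM and DESeq2 with R 3.4.2. The methods and the labels name different library kits, Smart-seq2 and NEBNext. The table the authors deposited holds TPM of 36066 genes, named by symbol. Multiplied by GENCODE M21 exon length, 95.1% to 95.4% of values per library were whole reads within 0.05, for 35861 genes matched by symbol, and these recovered reads gave depth and floors.

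The 27259 genes that reached 0.1 TPM in 2 or more libraries were analysed as log2(TPM + 1) with limma 3.58.1 in R 4.3.3, a mean per group, a variance trend (5 residual and 2.81 prior degrees of freedom) and Benjamini-Hochberg adjustment over all genes. The count test of the study was not used because the values are TPM. The members and lists were chosen with earlier results of these data known. Named beside the members are the largest called rise and fall of each list in a comparison, markers beside a member, and the most similar genes by Pearson r. Names outside this rule (Itgb1, Ptprc and genes sharing sequence) were chosen after their values were seen. Also tried were quantile normalization, a pseudocount of 0.1, no filter, a filter of 1 TPM, median centring, the compared groups alone, replicate as a block, each library left out and, added after seeing the data, voom on recovered reads for 27091 genes. Sequences are those of RefSeq, and the promoters of the other members are not reported here. The procedure was tested on simulated data. Replicates differed by more than sampling noise (chi-square per degree of freedom 8.24 to 50.92). Tables were handled with pandas 2.3.3 and numpy 2.4.6 in Python 3.11.15, and plots drawn with matplotlib 3.10.9.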

Additional observations from a re-analysis of the deposited data

Results flagged for a closer look

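For 4 of the 10 genes the change from stem cells to PGCLCs differed between the origins by the interaction term of limma at an adjusted p under 0.05. The change of Krt8 was 2.63 larger on the log2 scale for pESCs than for ESCs (adjusted p = 0.000432), and that of Krt18 was 2.55 larger (adjusted p = 0.000672). For Vim the interaction was 1.11 (adjusted p = 0.0168), and for Epcam it was 0.77 (adjusted p = 0.0237), under 2-fold. The first 2 stayed called under every alternative tried, and that of Vim did not. Groups of 2 libraries are too small for a test of single outlying libraries.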

How the results depend on the processing

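Of 933 alternative values over 52 changes of members, 868 kept their direction and side of the threshold, 35 lost a call, 20 gained one and 10 changed sign. Between pESCs and ESCs, where 213 genes were called, 402 were called with a filter of 1 TPM, 132 without a filter, 122 after quantile normalization, 459 with voom, 0 in those groups alone and 30 to 953 with a library left out, and a pseudocount of 0.1 called 1 member, Krt8. With voom 12295 genes and 5 members were called in ESC-PGCLCs against ESCs and 11317 genes in pESC-PGCLCs against pESCs, and a pseudocount of 0.1 also called 5 members in the former. For PGCs against ESC-PGCLCs 6140 genes were called with a pseudocount of 0.1, 1906 after quantile normalization and 0 genes and 0 members in those groups alone. For PGCs against pESC-PGCLCs 1956 genes were called with voom, 0 in those groups alone and 34 to 1966 with a library left out, and the 1 member was lost (0) after quantile normalization, after median centring and in those groups alone, and ranged from 0 to 1 with a library left out. For PGCs against both stem cells 13625 genes were called with a pseudocount of 0.1 and 13871 with voom, and 3 members after quantile normalization. The interaction called 3305 to 5524 genes with a library left out.

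Directions that turned all belonged to values that were not called. Cdh1 in pESCs against ESCs was 0.17 after quantile normalization, 0.23 after median centring, 0.016 with voom and -0.304 to 0.091 with a library left out. Median centring gave -0.025 for Epcam between the PGCLCs, -0.31 for Krt19 in pESC-PGCLCs against pESCs and -0.023 for Krt19 in PGCs against both stem cells. Krt19 lies near 0 TPM, and centring shifts such genes as much as others. Quantile normalization gave -0.037 for Krt8 in PGCs against pESC-PGCLCs. With a library left out, Zeb1 ranged from -0.134 to 0.059 between the PGCLCs and from -0.40 to 0.12 in the interaction. Of all genes called in PGCs against both stem cells 75.8% were higher. The share was 51.6% after quantile normalization, 35.8% after median centring and 72.6% with voom. Krt8 and Krt18 stayed called under every alternative between the PGCLCs and in the interaction.

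Deviations of libraries with the same replicate number had correlations of -0.09 to 0.35 over 9024 genes, over 0.1 in 3 of 10 pairs of groups (ESC with pESC, ESC with PGC and pESC with PGC), so the numbers were not taken to pair the libraries. With the number as a replicate block 78 genes were called between pESCs and ESCs, and the count of called members stayed the same in all 8 comparisons. At these depths Snai1 and Krt19 in stem cells and ESC-PGCLCs could not be measured beyond a few reads.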
